A study of Rattus norvegicus with 11 samples.

Results

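Voltage-gated calcium channels open when the membrane of a cell is depolarized and let calcium in. Their pore is formed by 1 large alpha-1 subunit, encoded by a Cacna1 gene. The genes described here are 8 Cacna1 genes of the neuronal classes, out of the 16811 genes of the deposited table: Cacna1c and Cacna1d (L type), Cacna1a (P/Q type), Cacna1b (N type), Cacna1e (R type), and Cacna1g, Cacna1h and Cacna1i (T type). All 8 were in the table and all 8 passed the filter on low values (3 or more libraries at 10 or above), as did 12085 genes in all. Of the other pore genes of the family, Cacna1f stood between 0 and 9.01 and was not tested, and Cacna1s had no row under that symbol. The genes were taken by symbol, with no measured value in the rule. They and the gene lists below were chosen with earlier results of these data known, so counts of genes called are descriptive.

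The RNA came from Sprague-Dawley rats and from the dorsal root ganglion, the cluster of sensory neuron cell bodies beside the spinal cord. The Sham libraries (n = 4) are controls from the right side. The SNL libraries (n = 4) are from the left side after spinal nerve ligation, which is used to produce neuropathic pain in rodents. The SNL plus UNC0638 libraries (n = 3) are also from the left side, with UNC0638 given after the ligation. UNC0638 inhibits the histone methyltransferases G9a and GLP. Ages, the dose and route of UNC0638 and the time after ligation are not stated, and no group received UNC0638 without ligation. The side of the body and the ligation cannot be told apart in comparisons with Sham, and the labels do not say whether a library is 1 animal or a pool, or whether right and left ganglia came from the same animals. Genes said below to rise or fall with ligation, or to be raised or lowered by it, differed between SNL and Sham.

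High-voltage-activated channels (L, P/Q, N and R types) need strong depolarization. N and P/Q channels sit at nerve terminals, where the calcium they admit triggers transmitter release, and the N type is the target of the analgesic ziconotide. L-type channels couple activity to gene expression in neurons and carry the calcium current of cardiac and smooth muscle. T-type channels open near the resting potential and set how readily a neuron fires, and in ganglia their current is best known from touch-sensitive and small pain-sensing neurons, where Cacna1h supplies most of it.

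The values are read counts that the authors scaled with 1 factor per library, and they are called scaled counts here. The libraries held 6127898 to 24367780 reads, estimated as each value over the value of a single read. Levels were not compared between genes, because a longer transcript gives more reads and the counted transcript lengths are not known here. Differences are on the log2(value + 1) scale from limma fitted to all 12085 genes, two-sided, with Benjamini-Hochberg adjustment over them, and a gene was called at an adjusted p under 0.05. Intervals are 95% intervals of that fit. Since the labels do not say that replicates were separate animals, p-values measure the spread between these libraries. In bulk tissue, fewer cells of a type and less RNA per cell cannot be told apart.

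Some libraries stood apart and touch most results below. The libraries numbered 3 of Sham and of SNL departed from their groups in like ways over the tested genes (r = 0.43 across genes, which are not independent replicates). Sham replicate 3 was the highest Sham library for 8 of 8 pore genes. SNL replicate 3 was the highest SNL library for 6 of 8. The summed level of ribosomal protein genes, taken after the data were seen, was lowest within their groups in the same libraries (150449 against 182687 to 198955 in the other Sham libraries, and 226206 against 256553 to 306501 in the other SNL libraries) and was 145519 to 177943 with UNC0638. Of the 12 skeletal muscle genes found of 14 listed, the summed level was 81789 in SNL plus UNC0638 replicate 1 and 155 to 574 in the other 10 libraries. That UNC0638 library also had the lowest summed level of 9 nerve injury genes, 3968, below every Sham library (4070 to 5372). The part of this in the pore gene differences was not tested. Per the labels RNA came from either Trizol or RNeasy extraction, without saying which for which library, so extraction cannot be told apart from the groups.

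**Figure D1:**
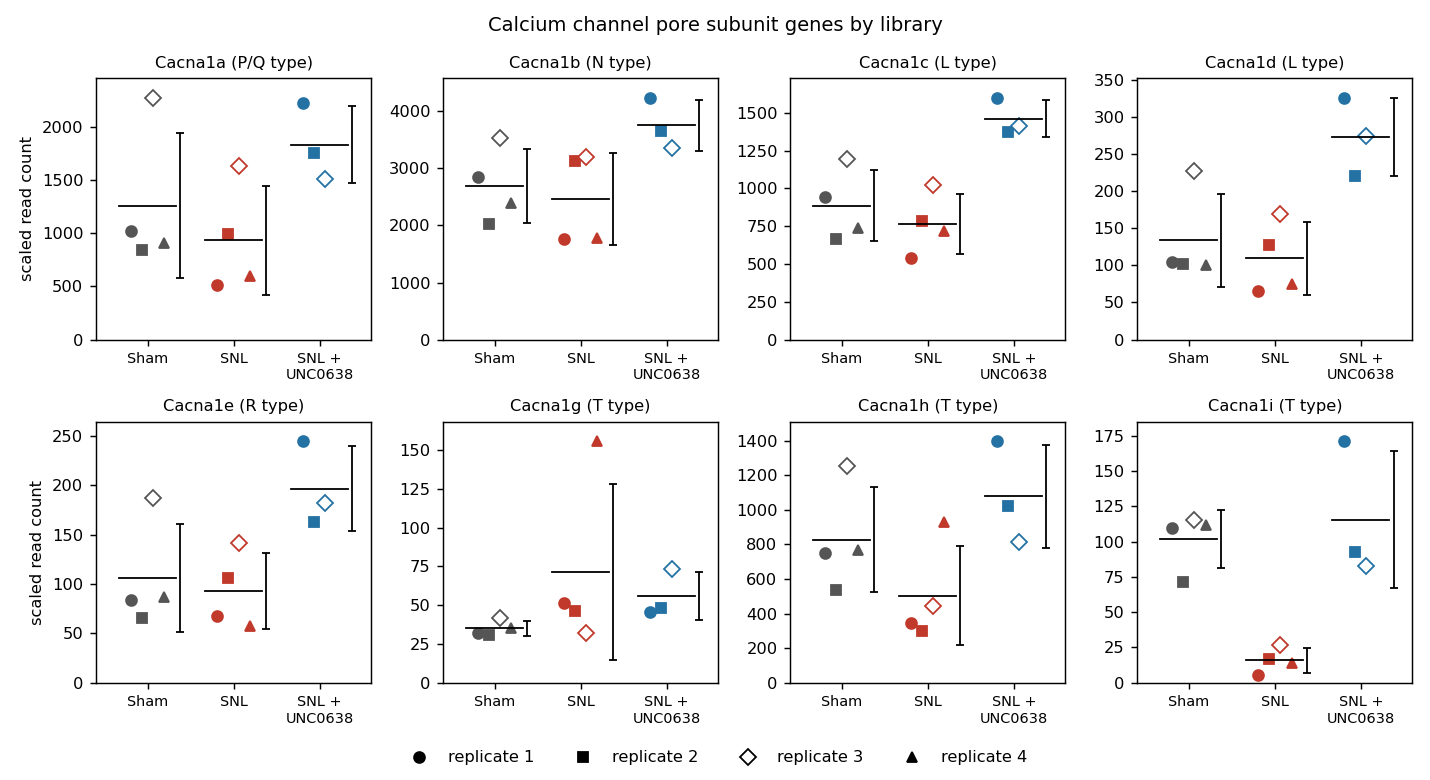
Scaled read counts of the 8 pore subunit genes (y axes from 0, a scale per gene) in Sham, SNL and SNL plus UNC0638 libraries; symbols mark replicate numbers, open diamonds are each group's replicate 3, and bars are the mean and SD (n = 4, 4 and 3). Cacna1i is at 5.64 to 27.0 in the SNL libraries and at 71.6 or above in all others, and the open Sham diamond is the highest Sham point in every panel.

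Cacna1i, a T-type gene, was the pore gene called lower in SNL than in Sham. Its scaled counts in Sham replicates 1 to 4 were 109.9, 71.6, 115 and 111, and in SNL replicates 1 to 4 they were 5.64, 16.7, 27.0 and 13.7. The highest SNL library lay below the lowest Sham library. Group means fell from 102 ± 20.4 to 15.8 ± 8.84 (SD, n = 4 each), a 6.47-fold lower mean (log2 difference -2.77, SE 0.39, adjusted p = 0.000260), and it was the 1 of 8 members that fell, where 23.4% of all tested genes fell and 24.8% rose. No member rose. The groups did not overlap for this 1 member, where 21.2% of tested genes were lower without overlap. The low SNL values rest on few reads: an estimated 6 reads in SNL replicate 1 (exact Poisson interval 2.20 to 13.1) and 39 in SNL replicate 2 (27.7 to 53.3), against 63 to 145 in the Sham libraries. These intervals cover counting error only, since reads without molecular identifiers are not independent molecules. The fall was called in all 11 fits with 1 library left out (log2 difference -3.08 to -2.38).

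With UNC0638 Cacna1i was higher than in SNL, with a mean near that of Sham. Its values in SNL plus UNC0638 replicates 1, 2 and 3 were 171, 92.8 and 82.6, each above every SNL library. The mean of 116 ± 48.5 (SD, n = 3) was 7.33-fold that of SNL (log2 difference 2.90, SE 0.43, adjusted p = 0.00121), where 13.5% of tested genes were higher. Against Sham the difference was 0.13 (95% interval -0.80 to 1.06, adjusted p = 0.820). The interval still holds differences of nearly 1 log2 unit either way, so equality with Sham is not shown. The comparisons with SNL share the SNL libraries, and a low SNL mean enters both. Replicate 1, the library with the skeletal muscle genes, was the highest. Without it the difference from SNL was 2.58 and stayed called. A further fit had an added term shared by Sham replicate 3, SNL replicate 3 and all UNC0638 libraries, chosen after seeing the data. In that fit the difference was 2.34 (adjusted p = 0.0136). Because every UNC0638 library carries the term, only the Sham and SNL replicates 3 separate it from UNC0638. The term takes their excess out of the UNC0638 differences, and so lowers these where those replicates are high. Fits with the term, here and below, therefore cannot tell UNC0638 apart from that pattern. Set against SNL replicate 3 alone, the Cacna1i mean with UNC0638 was 4.28-fold, and against the mean of the other SNL libraries 9.62-fold.

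Cacna1h, the main T-type gene of sensory neurons, gave SNL values that were split. Sham replicates 1 to 4 were at 753, 537, 1253 and 766, and SNL replicates 1 to 4 at 345, 300.1, 443 and 928. Of the SNL libraries, 3 lay below all Sham libraries and replicate 4 above 3 of them. The means were 827 ± 302 and 504 ± 289 (SD, n = 4 each), and the difference missed the threshold (log2 difference -0.80, 95% interval -1.55 to -0.04, adjusted p = 0.0750). It was called without SNL replicate 4 (-1.14, adjusted p = 0.00765) and without Sham replicate 2 (-0.98, adjusted p = 0.0494). With UNC0638 the gene was at 1397, 1021 and 811 (mean 1077 ± 297, SD, n = 3), higher than SNL (log2 difference 1.21, SE 0.37, adjusted p = 0.0324). The groups overlapped through SNL replicate 4. That call was lost without SNL replicate 1 or 2 or SNL plus UNC0638 replicate 1 or 2 (adjusted p 0.0802 to 0.110) and with the term for the libraries that stood apart (0.89, adjusted p = 0.228). Against Sham the difference was 0.41 (95% interval -0.40 to 1.22, adjusted p = 0.371).

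Cacna1g, the remaining T-type gene, was low, and no comparison of it was called. It was at 32.0, 30.7, 42.1 and 35.4 in Sham replicates 1 to 4 and at 51.7, 46.3, 32.3 and 156 in the SNL replicates. SNL replicate 4 was again far above its group, and 3 of 4 SNL libraries were above all Sham libraries. The difference of 0.75 (95% interval -0.11 to 1.61, adjusted p = 0.136) missed the threshold, and it was called without SNL replicate 3 (1.03, adjusted p = 0.0413). Values with UNC0638 were 45.7, 48.0 and 73.5, within the SNL range and above every Sham library (0.63 against Sham, 95% interval -0.30 to 1.56, adjusted p = 0.231; -0.12 against SNL, 95% interval -1.05 to 0.82, adjusted p = 0.852). The sign of the difference from SNL turned without SNL replicate 4 (0.35) and without SNL plus UNC0638 replicate 1 (0.0077). SNL replicate 4 also had the highest summed level of 6 fibroblast genes, 217026 against 85909 to 124928 in the other SNL libraries, whose part in the Cacna1g and Cacna1h values was not tested.

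**Figure D2:**
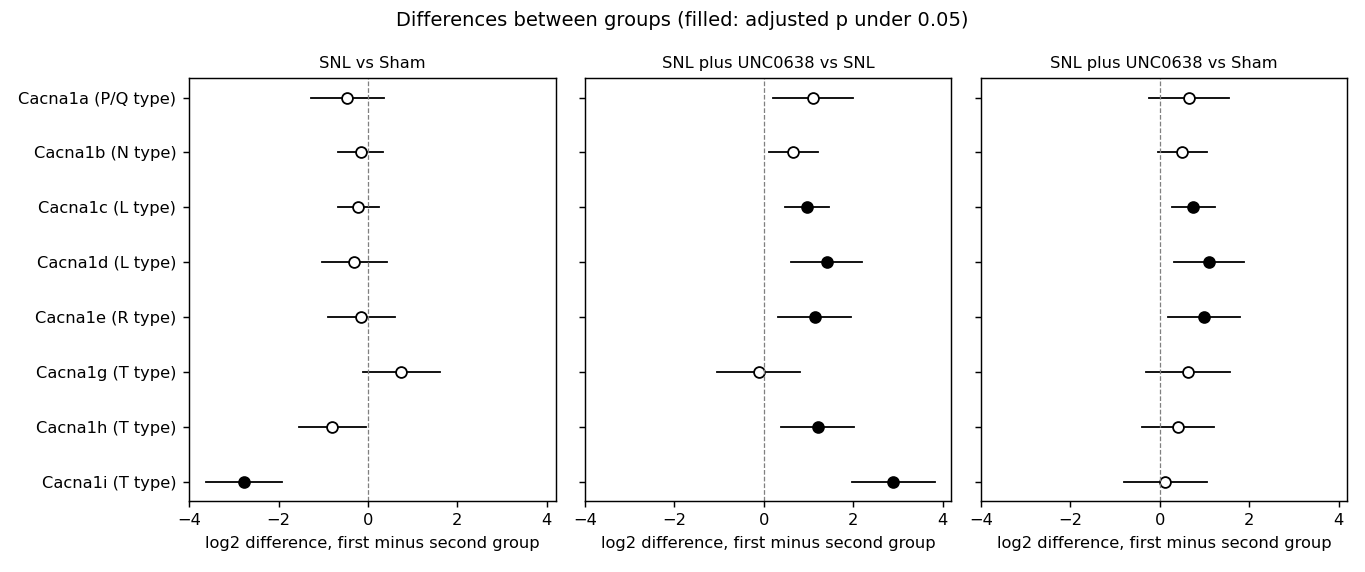
Log2 difference of each pore subunit gene between groups (x axis, first minus second group, log2(value + 1) scale), with 95% intervals as lines; filled points have an adjusted p under 0.05 over all 12085 genes. Cacna1i alone is filled for SNL against Sham (-2.77), while 5 genes are filled for SNL plus UNC0638 against SNL and 3 for SNL plus UNC0638 against Sham, all to the right of 0.

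Among high-voltage-activated genes, none of the 5 was called between SNL and Sham, where 48.2% of tested genes were. Their log2 differences ran from -0.46 (Cacna1a) to -0.15 (Cacna1e), and their intervals all held 0. With UNC0638, 3 of the 5 were higher than SNL (Cacna1c, Cacna1d and Cacna1e), where 13.5% of tested genes were higher, and the same 3 were higher than Sham, where 25.5% of tested genes were higher. Both comparisons share the UNC0638 libraries.

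Cacna1b, the N-type gene, was at 2857, 2023, 3526 and 2391 in Sham replicates 1 to 4 and at 1758, 3129, 3202 and 1777 in SNL replicates 1 to 4. The SNL libraries fell into a lower and a higher pair, and the groups overlapped (log2 difference -0.16, 95% interval -0.67 to 0.35, adjusted p = 0.593). The values with UNC0638, 4239.5, 3665 and 3357, were all above the highest SNL library. The mean of 3754 ± 448 (SD, n = 3) was 1.52-fold that of SNL (2466 ± 808, SD, n = 4), and the difference missed the threshold (log2 difference 0.66, 95% interval 0.11 to 1.21, adjusted p = 0.0682). It was called without SNL replicate 3 (0.81, adjusted p = 0.0284) and without Sham replicate 3, which leaves it at 0.66 (adjusted p = 0.0458).

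Cacna1a, the P/Q-type gene, showed the replicate 3 pattern most. Sham replicates 1 to 4 were at 1019.7, 841, 2278 and 905, and SNL replicates 1 to 4 at 512, 995, 1636 and 596. Sham replicate 3 was 2.47-fold and SNL replicate 3 was 2.33-fold the mean of the other libraries of its group. With UNC0638 the gene was at 2231, 1759 and 1516, none above Sham replicate 3. The difference from SNL was 1.11 (95% interval 0.22 to 2.001, adjusted p = 0.0617) and that from Sham 0.65 (95% interval -0.24 to 1.54, adjusted p = 0.200). Against SNL replicate 3 the mean with UNC0638 was 1.12-fold, and against the mean of the other SNL libraries 2.62-fold. With replicate 3 of Sham and of SNL left out, Cacna1a was called higher with UNC0638 than in SNL (1.43, adjusted p = 0.000748), while the term that set those libraries apart left 0.14 (adjusted p = 0.786).

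Cacna1e, the R-type gene, was at 83.5, 65.9, 187 and 86.8 in Sham replicates 1 to 4 and at 67.7, 106, 141 and 57.5 in SNL replicates 1 to 4. With UNC0638 it was at 245, 162 and 182, above every SNL library. The mean rose from 93.2 ± 38.3 (SD, n = 4) to 196 ± 43.1 (SD, n = 3), 2.11-fold (log2 difference 1.14, SE 0.37, adjusted p = 0.0400). This was the least stable of the calls. With the term for the libraries that stood apart it was 0.33 (adjusted p = 0.509). It held in 3 of 11 fits with 1 library left out, and it was lost without SNL replicates 1, 2 or 4, without any 1 of the UNC0638 libraries and without Sham replicates 1 or 4 (adjusted p 0.0532 to 0.126). Against Sham it was also called (0.98, adjusted p = 0.0428), with 1 of 3 UNC0638 libraries, replicate 1, above all Sham libraries. That call held in 4 of 11 such fits and was lost without Sham replicates 1, 2 or 4, without SNL replicate 2 and without any 1 of the UNC0638 libraries (adjusted p 0.0527 to 0.129).

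Cacna1c, the L-type gene of muscle and neurons, was at 945, 668, 1195 and 738 in Sham replicates 1 to 4 and at 539.9, 784, 1020.45 and 718 in SNL replicates 1 to 4. With UNC0638 it was at 1599, 1371 and 1409.9, above all 8 other libraries. The mean of 1459.9 ± 122 (SD, n = 3) was 1.91-fold that of SNL (766 ± 199; log2 difference 0.96, SE 0.22, adjusted p = 0.01003) and 1.65-fold that of Sham (886 ± 237; log2 difference 0.75, SE 0.22, adjusted p = 0.0152). Both calls held in all 11 fits with 1 library left out. With the term for the libraries that stood apart they were lost (0.50, adjusted p = 0.112, and 0.29, adjusted p = 0.221). The summed level of 7 smooth muscle and mural cell genes was also highest with UNC0638 in every library. It was 1697 to 2146 in Sham, 2677 to 3827 in SNL and 4392 to 5023 with UNC0638. Des, a member of that list, ran from 128 to 199 in SNL and from 350 to 1443 with UNC0638 (median 368). The separation of the sums rests on Des: without it, the UNC0638 library at 1443 would not lie above every SNL library. Of the 7 genes, 2 were called higher than in SNL and 0 lower, where 13.5% of tested genes were higher and 14.3% lower. Tagln had a lower mean with UNC0638 than in SNL (377 against 548). Smooth muscle uses the Cacna1c channel, and the part of smooth muscle in the Cacna1c values was not tested.

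Cacna1d, the L-type gene of neurons and endocrine cells, was at 104, 102, 227 and 101 in Sham replicates 1 to 4 and at 64.9, 127, 169.7 and 74.8 in SNL replicates 1 to 4. Apart from replicate 3, the Sham libraries were within 4 units of each other. With UNC0638 the gene was at 326, 219.7 and 273, above every SNL library. The mean of 273 ± 52.9 (SD, n = 3) was 2.4997-fold that of SNL (109 ± 48.8; log2 difference 1.40, SE 0.36, adjusted p = 0.0156), the largest difference from SNL among the high-voltage-activated genes. It was lost without SNL plus UNC0638 replicate 1 (1.27, adjusted p = 0.0539) and with the term (0.60, adjusted p = 0.181). Against Sham (134 ± 62.6) it was 1.101 (SE 0.36, adjusted p = 0.0242), lost in 5 of 11 fits, those without Sham replicates 1, 2 or 4 and without UNC0638 replicates 1 or 3 (adjusted p 0.0597 to 0.0751). The term left 0.30 (adjusted p = 0.386).

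In all, 5 of 8 pore genes were higher with UNC0638 than in SNL and 0 were lower, where 13.5% of tested genes were higher and 14.3% lower. The median log2 difference of the 8 was 1.12, against 0.01 over all tested genes. Also 5 of 8 (Cacna1b, Cacna1c, Cacna1d, Cacna1e and Cacna1i) had every UNC0638 library above every SNL library, where 17.7% of tested genes did. The number of members called higher than SNL at the adjusted p, 5 with all libraries, was 2 without SNL plus UNC0638 replicate 1. It was 3 without SNL plus UNC0638 replicate 2, SNL replicate 1 or SNL replicate 2. With the term for the libraries that stood apart it was 1 (Cacna1i). All UNC0638 libraries share that term, which takes the excess of the Sham and SNL replicates 3 out of their differences. Against Sham 3 of 8 were higher and 0 lower, where 25.5% of tested genes were higher and 26% lower. Of the 8, 2 (Cacna1c and Cacna1g) lay above Sham without overlap, where 23.4% of tested genes had none in that direction. The number called higher than Sham at the adjusted p, 3 with all libraries, was 1 (Cacna1c) without Sham replicates 1, 2 or 4 or UNC0638 replicates 1 or 3, 5 without Sham replicate 3, and 0 with the term. The Sham replicate 3 library, which received neither ligation nor UNC0638, lay close to the UNC0638 mean for several genes. That mean was 1.002-fold its value for Cacna1i, 1.06-fold for Cacna1b, 1.05-fold for Cacna1e, 1.1996-fold for Cacna1d and 1.22-fold for Cacna1c. For the others it was 0.81-fold for Cacna1a, 0.86-fold for Cacna1h and 1.32-fold for Cacna1g. That library had the lowest ribosomal protein sum of the Sham group, whose part in these differences was not tested.

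**Figure D3:**
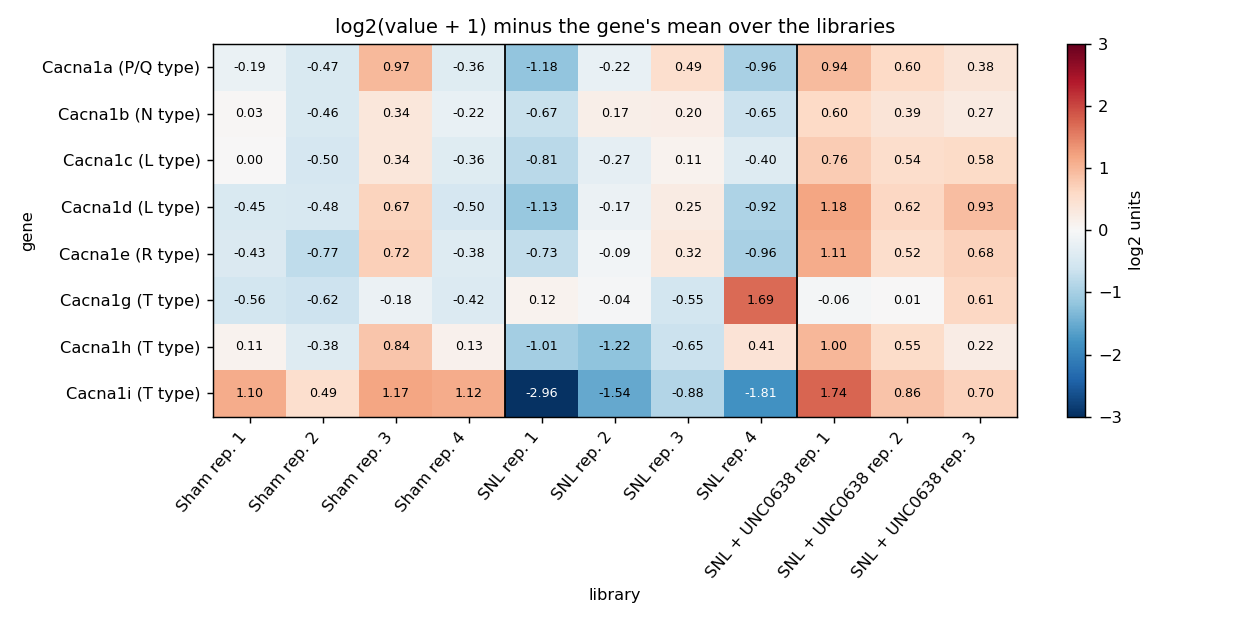
Level of each pore subunit gene (rows) in each library (columns) as log2(value + 1) minus the gene's mean over the 11 libraries; red is above the mean, blue below, and vertical lines separate Sham, SNL and SNL plus UNC0638. Rows Cacna1a to Cacna1e are above their means in Sham replicate 3, SNL replicate 3 and all UNC0638 libraries, while Cacna1i is low only in the SNL libraries (-2.96 to -0.88).

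Across libraries the 5 high-voltage-activated genes ran alike. The root mean square difference between their centred log2 profiles over the 11 libraries was smallest for Cacna1d and Cacna1e (0.18) and for Cacna1b and Cacna1c (0.20). It was at most 0.39 for any pair of the 5 and at least 0.51 for any pair that held a T-type gene. No test was made of these profiles, which share libraries and scaling. Counting error adds to the distances of Cacna1g and Cacna1i, with as few as 23 reads (Sham replicate 1) and 6 reads (SNL replicate 1). By the same measure the other genes closest to a member, for members with a mean of at least 100, were Htt (huntingtin, 0.10) and Celsr3 (an adhesion receptor of axon guidance, 0.11) for Cacna1b. Vps13d (a lipid transfer protein, 0.10) and Trpm3 (a heat-sensing channel, 0.12) were closest to Cacna1c. Iqsec3, a synaptic exchange factor (0.12), and Ctif, a translation factor (0.13), were closest to Cacna1a. Wdfy3, a selective autophagy adaptor, was among the closest to both Cacna1d (0.22, after the zinc-finger factor Zfhx4 at 0.21) and Cacna1e (0.17, before the mTOR inhibitor Tsc1 at 0.21). Cacna1h had no close neighbour, with Tmem158 (0.30) and the netrin gene Ntn3 (0.31) nearest. The likeness was thus not particular to channel genes. For Cacna1a, Cacna1b, Cacna1c and Cacna1e the nearest of these other genes lay closer than any pore gene. For Cacna1d the nearest was Cacna1e.

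The 2 closest pairs of genes are shown with the 300 bases around 1 annotated start of each (250 before to 50 after), to set genes that ran alike beside the letters at their starts. The sequences are from RefSeq in build GRCr8, a later build than the rn4 used for the counts, and 5 of 8 members (not Cacna1g, Cacna1h or Cacna1i) were matched. All 4 lie on the minus strand and are written 5′ to 3′ in the direction of the gene: Cacna1d at chr16:5527500-5527799, Cacna1e at chr13:69444761-69445060, Cacna1b at chr3:27944236-27944535 and Cacna1c at chr4:154051699-154051998. Capitals mark matches, on either strand and with overlaps counted, to the GC box GGGCGG, the cyclic AMP response element TGACGTCA or the AP-1 site TGANTCA, which the injury factors Jun and Atf3 can bind.
Cacna1d: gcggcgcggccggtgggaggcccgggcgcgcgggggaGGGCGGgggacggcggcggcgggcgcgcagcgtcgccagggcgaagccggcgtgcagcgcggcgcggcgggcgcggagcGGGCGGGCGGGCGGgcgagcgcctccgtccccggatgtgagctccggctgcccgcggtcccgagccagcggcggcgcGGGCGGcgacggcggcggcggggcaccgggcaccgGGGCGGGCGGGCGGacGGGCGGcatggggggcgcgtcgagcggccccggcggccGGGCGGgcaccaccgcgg
Cacna1e: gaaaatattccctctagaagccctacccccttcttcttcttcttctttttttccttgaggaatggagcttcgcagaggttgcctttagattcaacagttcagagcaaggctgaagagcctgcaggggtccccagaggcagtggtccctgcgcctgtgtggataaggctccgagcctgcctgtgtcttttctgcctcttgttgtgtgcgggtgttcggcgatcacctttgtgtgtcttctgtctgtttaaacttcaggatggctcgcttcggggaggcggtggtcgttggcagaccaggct
Cacna1b: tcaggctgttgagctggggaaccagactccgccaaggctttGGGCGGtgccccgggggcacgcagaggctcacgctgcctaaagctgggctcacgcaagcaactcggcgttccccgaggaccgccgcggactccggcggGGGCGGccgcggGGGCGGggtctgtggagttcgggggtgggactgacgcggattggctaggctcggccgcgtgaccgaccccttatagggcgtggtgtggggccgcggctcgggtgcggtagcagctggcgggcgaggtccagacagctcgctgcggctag
Cacna1c: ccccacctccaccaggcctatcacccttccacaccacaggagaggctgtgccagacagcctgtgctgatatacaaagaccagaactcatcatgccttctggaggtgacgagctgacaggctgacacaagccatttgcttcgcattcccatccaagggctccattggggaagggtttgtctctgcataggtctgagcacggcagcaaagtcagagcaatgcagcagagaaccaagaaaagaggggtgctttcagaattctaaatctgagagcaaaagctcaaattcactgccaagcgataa
The genes that ran alike had unlike letters in these windows. Whether transcription begins at these annotated starts in the ganglion was not checked. Cacna1d held 10 GC boxes and 66 CG steps and Cacna1e 0 and 10. Cacna1b held 3 GC boxes and 34 CG steps and Cacna1c 0 and 4. Cacna1a, not shown, held 1 GC box and 41 CG steps. No match to TGACGTCA or TGANTCA was found in the 5 windows. Of 33469 RefSeq windows of this length, 33.1% held a GC box, 1.83% the cyclic AMP response element and 7.33% the AP-1 site, and the median was 7 CG steps. A match is a description of letters and not a binding site, and the deposited data hold no measure of chromatin at these starts.

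The types were then set against each other through the ratio of each member to Cacna1b within a library, which needs neither gene length nor library scaling. Between SNL and Sham, Cacna1i was the member whose ratio separated the groups: it was 3.27% to 4.66% of the Cacna1b value in Sham and 0.321% to 0.844% in SNL. The difference in mean log2 ratio was -2.61, with p = 0.0286 in an exact two-sided permutation test, the smallest that 4 against 4 libraries can give, and 0.200 after adjustment over the 7 ratios. The ratio of Cacna1h ranged from 26.3% to 35.5% in Sham and from 9.59% to 52.2% in SNL (difference -0.64, p = 0.314, exact permutation test). For Cacna1a, Cacna1c, Cacna1d and Cacna1e the difference lay between -0.30 and 0.01, with p from 0.343 to 1 in exact permutation tests. The ratio of Cacna1g was higher by 0.91 in mean (p = 0.343, exact permutation test), with SNL replicate 4 the highest library. The Cacna1i ratio thus differed by more than the spread between libraries. As the only ratio at the smallest possible p, it could not pass after adjustment over the 7 ratios, which gives 0.200 at best.

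**Figure D4:**
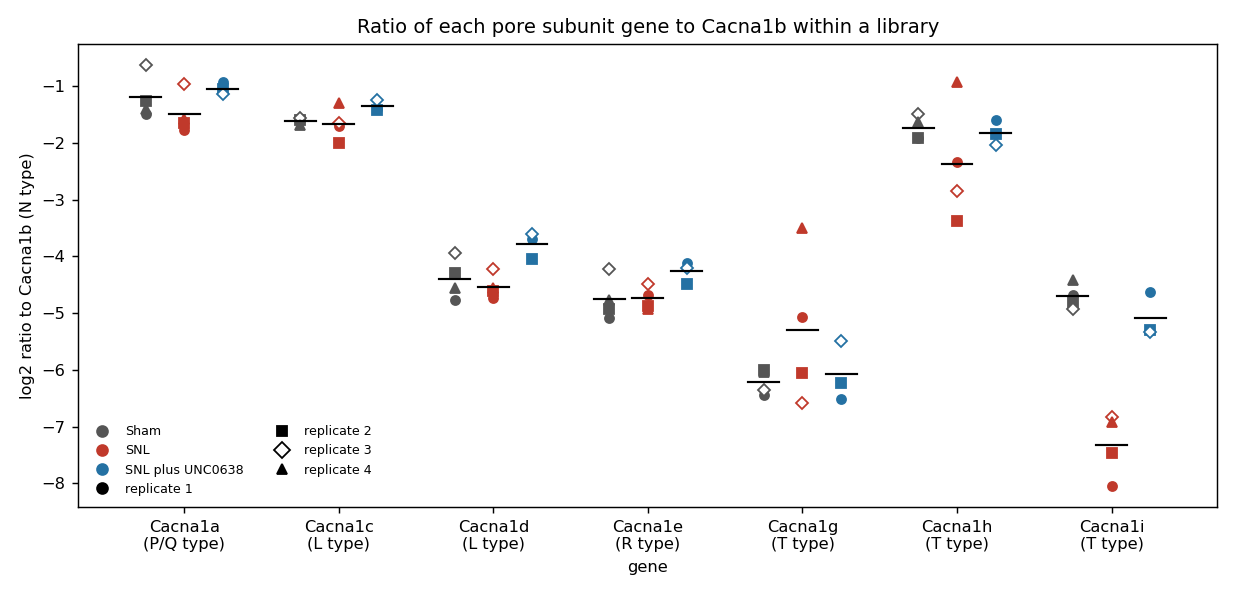
Log2 ratio of each pore subunit gene to Cacna1b in the same library (y axis, each value + 1), by gene and group, with symbols for replicate numbers and bars for group means. Cacna1i is at -8.05 to -6.84 in SNL and at -5.33 or above in the other groups, and SNL replicate 4 is the highest point for Cacna1g and Cacna1h.

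With UNC0638 the ratios to Cacna1b of Cacna1d, Cacna1e and Cacna1i were above all SNL libraries, by 0.74, 0.48 and 2.24 in mean log2 ratio. The exact permutation p was 0.0571 for each, the smallest that 3 against 4 libraries can give, so this comparison cannot pass the threshold (adjusted p = 0.133). Against Sham the ratio of Cacna1c was the one without overlap (0.25, exact permutation p = 0.0571, adjusted p = 0.267), and that of Cacna1i differed by -0.37 (exact permutation p = 0.229). No ratio was called. Of the 7 ratios tested between SNL and Sham 1 had an unadjusted p under 0.05, and with UNC0638 the design allowed none in either comparison.

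Auxiliary subunit genes were listed by family name (alpha-2-delta, beta and gamma), which does not show that each product is part of the channel. Of the 16 listed, 13 were tested. Ligation raised 1 and lowered 5 (median log2 difference -0.48), where 24.8% of all tested genes rose and 23.4% fell. Cacna2d1, which encodes the subunit that binds gabapentin and carries channels to the membrane, went from 2456 to 13093 in the mean (log2 difference 2.40, adjusted p = 0.000101). Cacna2d3, another alpha-2-delta gene, fell from 1706 to 545 (log2 difference -1.68, adjusted p = 0.000141), Cacnb3, a beta subunit gene, from 4844 to 2718 (-0.85, adjusted p = 0.00144) and Cacng5, of the gamma subunit family, from 66.4 to 6.91 (-3.19, adjusted p = 0.000220). With UNC0638, 4 of the 13 were higher than in SNL and 1 was lower, where 13.5% of all tested genes were higher and 14.3% lower. Cacna2d1 was the lower one (-1.67, adjusted p = 0.00128), and Cacna2d2 (185 to 760.4, log2 difference 2.05, adjusted p = 0.00436), Cacng5 (2.41, adjusted p = 0.00454) and Cacna2d3 (0.94, adjusted p = 0.0109) were higher. Against Sham, where 25.5% of all tested genes were higher and 26% lower, 1 of the 13 was higher with UNC0638 (Cacna2d1, 0.73, adjusted p = 0.0278) and 2 were lower (Cacna2d3, -0.75, adjusted p = 0.0152, and Cacnb3, -0.55, adjusted p = 0.0220). Nalcn, the sodium leak channel related to the pore genes, fell with ligation (-0.55, adjusted p = 0.00392) and with UNC0638 remained lower than in Sham (-0.68, adjusted p = 0.00188). Against SNL its difference was -0.12 (adjusted p = 0.505).

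Regulators that act on the pore were read next. Of 20 tested, ligation raised 5 and lowered 10, where 24.8% of all tested genes rose and 23.4% fell. Stac2, an adaptor of L-type channels, was at 0 to 10.9 in Sham and at 246 to 987 in SNL (log2 difference 7.03, adjusted p = 0.000182), and Rem2, a small GTPase that inhibits calcium channels, went from 288 to 340.5 in Sham to 5.47 to 71.3 in SNL (-4.63, adjusted p = 0.000249). Cdk5 (-0.64, adjusted p = 0.00130), a kinase of presynaptic channels, and Cabp1 (-1.20, adjusted p = 0.00312), a calmodulin-like protein, also fell. With UNC0638, 3 of 20 were higher than in SNL and 4 lower, near the shares of 13.5% and 14.3% over all tested genes. Rem2 was higher (3.05, adjusted p = 0.00962), as was Rims1, which tethers channels at release sites (1.45, adjusted p = 0.0143). The Rem2 groups overlapped, with SNL replicate 3 at 71.3 and SNL plus UNC0638 replicate 3 at 65.8. For the auxiliary, regulator and release genes, the fits with a library left out or with the added term were not read. Tspan13 (-1.27, adjusted p = 0.00103) and the calcium sensor gene Ncs1 (-0.53, adjusted p = 0.0140) were lower. Against Sham 3 were higher with UNC0638 and 9 lower (25.5% and 26% of all tested genes), with Stac2 higher (5.20, adjusted p = 0.00147) and Cdk5 (-1.02), Calm3 (-0.98) and Calm2 (-1.51) lower (adjusted p 0.000193 to 0.000412). Stac2 was split with UNC0638, at 19.7 in replicate 1, near the highest Sham library (10.9), and at 323 and 312 in replicates 2 and 3. The calmodulin genes encode 1 protein from near-identical coding sequences, so reads shared between them make their separate values uncertain.

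Of 9 tested genes of the release machinery that N and P/Q channels serve, ligation lowered 5 and raised 0, where 23.4% of all tested genes fell and 24.8% rose. Vamp1 went from 12394 to 2287 (-2.58, adjusted p = 0.000125), Snap25 from 15646 to 4772 (-1.78, adjusted p = 0.000294), Syt1 from 1331 to 536 (-1.34, adjusted p = 0.000330) and Cplx1 from 8139 to 5581 (-0.56, adjusted p = 0.0197). With UNC0638 Vamp1 (1.41, adjusted p = 0.00966) and Syt1 (0.68, adjusted p = 0.0362) were higher than in SNL and Stx1a was lower (-0.67, adjusted p = 0.00844), so 2 of 9 were higher and 1 lower, against 13.5% and 14.3% of all tested genes. Against Sham 5 were lower with UNC0638 and 0 higher (26% and 25.5% of all tested genes): the 4 with the smallest p were Cplx1 (-0.95), Snap25 (-1.29), Vamp1 (-1.18) and Cplx2 (-0.59), with adjusted p 0.00172 to 0.0129.

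Markers of the cells of the ganglion were read beside the pore genes. For the counts below, 24.8% of all tested genes rose and 23.4% fell with ligation. With UNC0638 against SNL, 13.5% of all tested genes were higher and 14.3% lower. Nociceptor markers fell with ligation in 10 of 10 and were higher with UNC0638 than in SNL in 6 of 10, with summed levels of 58725 to 74823 in Sham, 11408 to 25054 in SNL and 28768 to 54539 with UNC0638. Large-diameter neuron markers fell in 5 of 8 with ligation, and 3 of 8 were higher with UNC0638 than in SNL, with summed levels of 232577 to 367424 in Sham, 43535 to 128035 in SNL and 89998 to 180682 with UNC0638. SNL was the lowest group for both sums, as for Cacna1i, and SNL replicate 3 and SNL plus UNC0638 replicate 1 were the highest of their groups for both sums and for Cacna1i. In Sham, replicate 3 was the highest for the large-diameter sum and for Cacna1i, and replicate 1 for the nociceptor sum. This order was not particular to Cacna1i. Sham replicate 3 was the highest of its group for 8 of 8 pore genes, SNL replicate 3 for 6 and SNL plus UNC0638 replicate 1 for 7. SNL also had the lowest mean for Cacna1a to Cacna1e and Cacna1h. The part of either kind of neuron in the Cacna1i values was not tested. Pan-neuronal markers gave 1 higher and 5 lower of 8 with ligation and 0 higher and 3 lower with UNC0638 against SNL, with summed levels of 117060 to 142417 in Sham, 131837 to 166367 in SNL and 73288 to 80690 with UNC0638. Tubb3, Prph and Uchl1 carried most of that sum and had lower means with UNC0638 than in SNL. The other 5 had higher means with UNC0638 than in SNL, such as Map2 (5699 against 4140.3) and Elavl3 (778 against 604), and the median log2 difference of the 8 was 0.23. Nerve injury genes rose with ligation in 9 of 9 and were lower with UNC0638 than in SNL in 9 of 9. Their summed level was 4070 to 5372 in Sham and 27319 to 42169 in SNL. With UNC0638 it was uneven, at 3968 in replicate 1, below every Sham library, and at 11566 and 14307 in replicates 2 and 3. Macrophage markers rose with ligation in 10 of 10, fibroblast markers in 6 of 6 and smooth muscle and mural markers in 6 of 7. With UNC0638 against SNL, 0 of 10, 0 of 6 and 2 of 7 of these were higher, and 3 fibroblast markers were lower. Satellite glia and Schwann cell markers fell in 2 of 8 with ligation, near the share of 23.4% over all tested genes. In skeletal muscle markers 0 of 6 tested were called for SNL against Sham or for SNL plus UNC0638 against SNL.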

How the data were processed

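The members and the gene lists were chosen with earlier results of these data known. Libraries were made with a stranded total RNA kit with ribosomal RNA removed, per the labels. The submitters' processing notes name TopHat2 2.0.9, Cuffdiff 2.1.1 and the build rn4. The counter, annotation and handling of shared reads are not stated there. The values deposited by the authors are treated as signal, gene counts divided by 1 factor per library, since 98.9% to 99.2% of values under 100 reads were whole multiples of 1 step per library within 0.01 steps. Reads were estimated as value over step. Totals were 9450045 to 11347920. Median-of-ratios factors recomputed from them were 0.997 to 1.002.

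A count test had been named for raw counts. As the values are scaled, limma (3.58.1, R 4.3.3) with eBayes trend and robust (statmod 1.5.0) took log2(value + 1) from all 11 libraries, with 1 mean for each group. Symbols altered to dates (24) stayed in the table, and Sdc2 and Pcdhgc5, at 0 in every library of a group and high elsewhere, were excluded once their values were known. Named genes were the 8 members, per other list of channel genes the up to 4 called with the smallest p (or the 2 most abundant), and the 2 genes closest to each member with a mean of at least 100. Ratios were tested by exact permutation (scipy 1.17.1). Scripts were tested on simulated data. Alternatives were median-of-ratios scaling, a pseudocount of 10, no filter, a replicate block, only the groups compared and each library left out, and, added after seeing the data, limma-voom on estimated reads, Sham and SNL replicates 3 left out, and a term for Sham replicate 3, SNL replicate 3 and the UNC0638 libraries.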

Additional observations from a re-analysis of the deposited data

Results flagged for a closer look

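In 4 of 16 groups of 4 libraries (8 genes in Sham and in SNL), 1 library's gap to its nearest neighbour exceeded 0.829 of the group's range, which chance gives in about 1 in 20 groups. Cacna1a in Sham replicate 3 stood at 2278, with the other Sham libraries at 841 to 1019.7. Cacna1d in Sham replicate 3 stood at 227, with the others at 101 to 104. Cacna1g in SNL replicate 4 stood at 156, with the others at 32.3 to 51.7. Cacna1i in Sham replicate 2 stood low at 71.6, with the others at 109.9 to 115. No library was left out of the reported values for this.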

How the results depend on the processing

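The number of pore genes called was 1 for SNL against Sham. UNC0638 libraries gave 5 against SNL and 3 against Sham. Each stayed within 1.5 times of these with median-of-ratios scaling, a pseudocount of 10, no filter, only the groups compared and limma-voom (7 against SNL and 4 against Sham). With 1 library left out these counts ran from 1 to 2, 2 to 7 and 1 to 5. With replicate 3 of Sham and of SNL left out they were 2 (Cacna1g joining, 1.12, adjusted p = 0.0344), 7 and 5, and with the term for the libraries that stood apart 1, 1 and 0. The cause was not tested. Of 10 same-numbered pairs of libraries from different groups, 2 correlated above 0.1 in their deviations (r from -0.45 to 0.43), so the replicate numbers were not taken to pair samples. With the replicate number as a block, the counts were 1, 4 and 2 (Cacna1e lost in both, adjusted p 0.0642 and 0.0611), the Cacna1g difference from SNL turned to 0.12, and genes called over the whole table for SNL plus UNC0638 against SNL went from 3356 to 2126. That whole-table count was 1286 with the term, 5346 without replicate 3 of Sham and of SNL, 2078 without SNL replicate 1 and 2098 without SNL plus UNC0638 replicate 2.

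Signs that turned were of differences that had not been called. limma-voom gave 0.0441 for Cacna1e (SNL against Sham) and 0.0420 for Cacna1g (against SNL). The term gave 0.18 for Cacna1g (against SNL), -0.32 for Cacna1a and -0.43 for Cacna1i (both against Sham). With 1 library left out, Cacna1e ran from -0.38 to 0.16 (SNL against Sham), Cacna1g from -0.40 to 0.35 (against SNL) and Cacna1i from -0.19 to 0.33 (SNL plus UNC0638 against Sham). In the ratios to Cacna1b, those of Cacna1c (-0.17 to 0.0600), Cacna1d (-0.27 to 0.00511) and Cacna1e (-0.10 to 0.18) for SNL against Sham and of Cacna1g (-0.16 to 0.35) and Cacna1h (-0.20 to 0.0201) for SNL plus UNC0638 against Sham changed sign. No ratio was called under any alternative run, and leaving out a library of a compared group of 4 takes the smallest possible p above the threshold. The edgeR alternative was not run, because the values are not raw counts. Depth limits Cacna1i and Cacna1g, the members with the fewest reads, most.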
